A study of Mus musculus with 6 samples.

Results

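Protein folding in the cytosol rests on a small set of ATP-driven chaperones that hand unfinished proteins to one another. The constitutive HSP70 protein, encoded by *Hspa8*, binds unfolded stretches of new proteins. J proteins (DNAJ) deliver these proteins and start ATP hydrolysis, and exchange factors such as *Hsph1* and the BAG proteins release the nucleotide again. Clients such as kinases and steroid hormone receptors then pass to HSP90 through the adaptor encoded by *Stip1*, while actin and tubulin fold inside the CCT chaperonin after delivery by prefoldin. Heat shock factor 1 (*Hsf1*) is the transcription factor that raises many of these genes together under protein-damaging stress.

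The genes described here are the cytosolic HSP70, HSP90 and chaperonin system in mouse splenic monocytes, 54 genes out of 46072 gene identifiers in the deposited tables. They were listed by symbol and selected on their function and on earlier results of these same libraries, in which several of them differed between the groups. Their values are therefore given as a description, and no p-value is given for them. The list holds 13 genes of HSP90 and its cochaperones, 15 of HSP70 and its exchange factors, 9 J proteins, 1 small heat shock protein, 10 of CCT and prefoldin, 4 mitochondrial chaperones and 2 heat shock factors. Not all of them act in the cytosol, since *Hspd1*, *Hspe1*, *Trap1* and *Hspa9* encode mitochondrial proteins and *Hspa13* a microsomal one. A further 90 chaperone genes that are not members were listed for comparison, of which 77 could be tested.

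Splenic monocytes of female C57BL/6 mice, 8 to 10 weeks of age when obtained, were sequenced, and 2 groups of the study are described here. Mice of the Con group (n = 3) received water by gavage for 6 days, and mice of the Van group (n = 3) received 2 mg of vancomycin per day for the same time. Both groups were then rested without antibiotic for 6 to 8 days by the sample records, where the study's text gives 8 days for the sequenced mice. The monocytes were isolated by negative selection and were not stimulated in culture. Each library is thus 1 mouse, and the comparison asks how the monocyte transcriptome differs after the antibiotic and the rest.

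Total counts were between 43.4M and 61.8M per library. CPM values are counts scaled for library size, and FPKM also for transcript length, so that levels of different genes are compared by FPKM only. Values of single mice follow the order of replicates 1, 2 and 3, and values in brackets after a gene are log2 fold changes of Van against Con with their SE. The monocyte markers were abundant, with *Csf1r* between 2986 and 3619 CPM and *Lyz2* between 9754 and 12694 CPM, while the summed T cell markers were between 2.43 and 4.34 CPM. The 6 neutrophil markers summed to between 35.3 and 92.7 CPM, most of it *Mmp8*, with *Ly6g* at 0. The 5 plasma cell markers summed to between 589 and 702 CPM, most of it *Xbp1* and *Igkc*.

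Against Con, 17 of the 54 chaperone genes were called higher in Van (31.5%) and 0 lower, at an adjusted p-value no greater than 0.05 in edgeR's quasi-likelihood test. Over all 16138 genes tested, 322 (2.00%) were called, 1.08% of the genes higher and 0.917% lower. Since the genes were selected on this contrast, nothing is read from the difference between these shares. By log2 fold change, 46 of the 54 were above 0 and 8 below, with a median of 0.20, and the median of all genes tested was 0. For 32 of the 54, the 3 Van mice were all above the 3 Con mice, and for 0 they were all below. Groups without overlap are called separated below, and over all genes 11.5% were separated upward and 11.0% downward. The called genes had log2 fold changes from 0.35 (*Bag3*) to 1.76 (*Hsph1*), and all but *Stip1* and *Hsph1* were below 0.85.

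**Figure D1:**
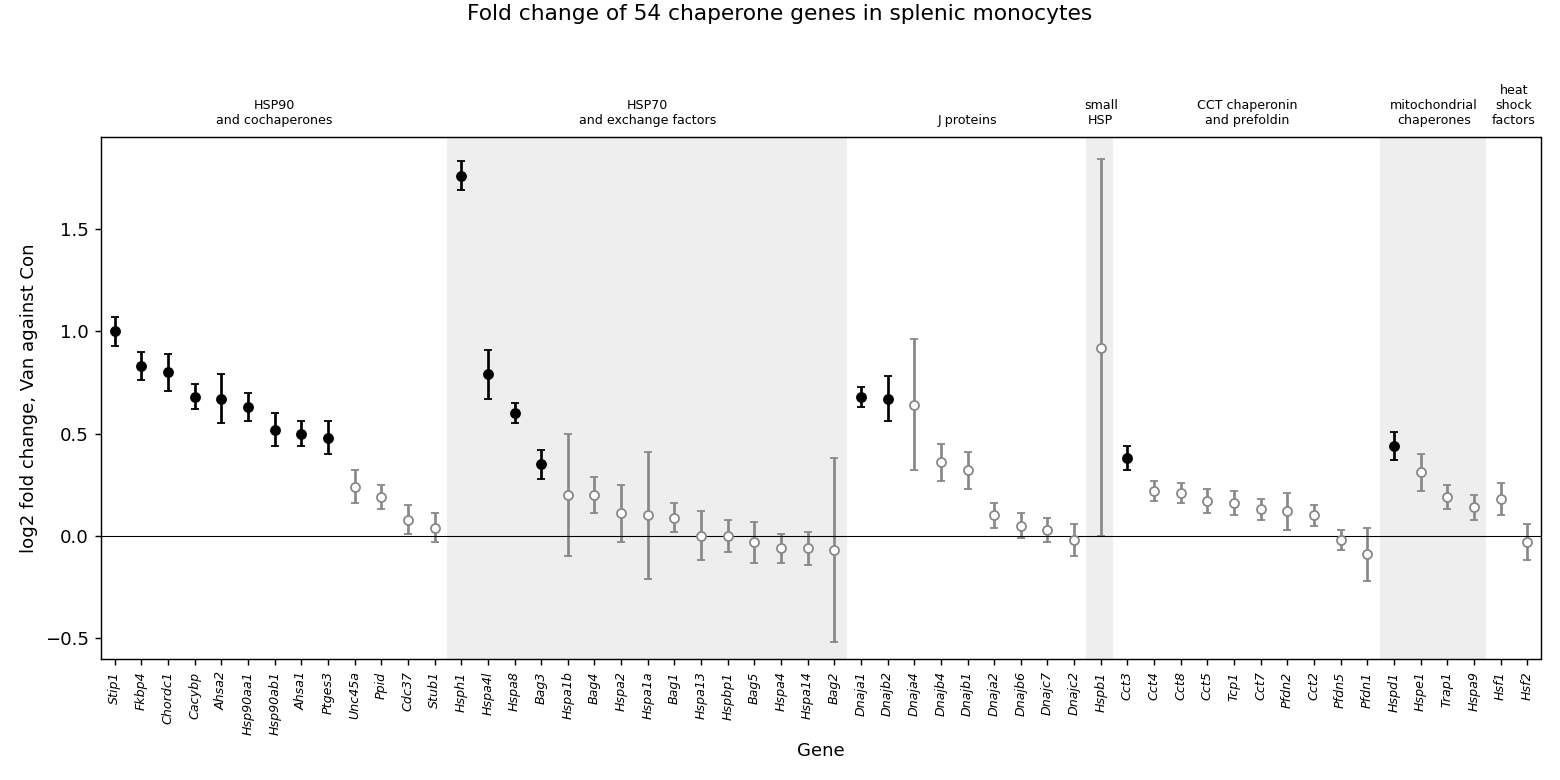
Log2 fold change of Van against Con (vertical axis, ± SE from edgeR) for each of the 54 genes, grouped by subfamily along the horizontal axis. Filled points are the 17 genes called higher and open points the rest. *Hsph1* stands highest at 1.76, and 9 of the 17 called genes are in the HSP90 subfamily. The wide bars belong to genes with few counts (*Hspb1*, *Bag2*, *Dnaja4*) and to *Hspa1a* and *Hspa1b*, which varied among the Con mice.

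How many of the 54 were called varied with the test and with the mice, while every call was upward. DESeq2 called 22 of the 54, where it called 6.36% of all genes, and a limma fit to log2(FPKM + 1) values called 5, where it called 0.0772% of all genes. Leaving out Con replicate 1, 2 or 3 left 10, 9 or 7 of them called, where 0.813%, 0.301% and 0.132% of all genes were called. Leaving out Van replicate 1, 2 or 3 left 12, 6 or 9, where 0.698%, 0.125% and 0.559% of all genes were called. *Hsph1*, *Stip1*, *Fkbp4*, *Cacybp*, *Hspa8* and *Dnaja1* were called in all 6 of these fits, and *Ahsa2*, *Bag3* and *Cct3* in 0 of them.

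The promoter sequences were not used in choosing the genes. The genes were chosen on function, however, and heat shock factors are known to raise many of them. Nothing is therefore read from how the shares below differ. Heat shock factors bind the heat shock element, repeats of the unit GAA that alternate in orientation with 2 bases between them. An element of 3 units (GAANNTTCNNGAA or TTCNNGAANNTTC, both strands) was searched from 250 bases before to 50 after each start in the RefSeq promoters of GRCm38.p6, which held 43 of the 54 genes. It was found in 5 of these 43 (11.6%), namely *Hsph1*, *Chordc1*, *Dnajb6*, *Hspd1* and *Hspe1*, and in 0.662% of the 27025 genes with a promoter. The called genes *Hsp90aa1*, *Hsp90ab1* and *Hspa8* had no promoter in this set and were not searched. The sites are shown 5′ to 3′ on the strand of the gene, with the units and the bases between them in capitals, since they are the matches of 3 units or more and belong to genes that were and were not called.
Hsph1 (chr5:149636280-149636308, minus strand): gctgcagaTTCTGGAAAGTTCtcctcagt
Chordc1 (chr9:18292260-18292288, plus strand): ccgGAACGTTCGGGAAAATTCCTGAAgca
Dnajb6 (chr5:29735844-29735872, plus strand): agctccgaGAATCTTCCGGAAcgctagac
Hspe1 (chr1:55088053-55088082, plus strand): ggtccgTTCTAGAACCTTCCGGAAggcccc
Counted from the RefSeq starts, the *Chordc1* site runs from -4 to 19 and the *Hsph1* site from 16 to 28 or from 37 to 49 for its 2 starts, so that the first spans the start and the second lies in transcribed sequence. The *Dnajb6* site, from -127 to -115 or from -46 to -34, and the *Hspe1* site, from -89 to -72, lie before the start. GENCODE M21, which gives the gene coordinates printed here, starts *Chordc1*, *Dnajb6* and *Hspd1* further upstream, so that by that annotation the sites lie inside these 3 genes, and inside *Hsph1*, and before *Hspe1*. The *Hspe1* site is also the *Hspd1* site, read there from the minus strand, because the 2 genes lie head to head and share this stretch. Of the 5 genes with the element, *Hsph1*, *Chordc1* and *Hspd1* were called higher, and *Dnajb6* had a log2 fold change of 0.05 ± 0.06 SE. These calls belong to the contrast on which the genes were selected, and nothing is read from them. Among genes that were not members, 54 with the element could be tested, of which 0 were called higher and 1 lower, with a median of 0.04. The shorter element of 2 units (GAANNTTC or TTCNNGAA, contained in the longer one) was in 39.5% of the 43 promoters and in 17.0% of all genes. A match is a run of letters in this window and not a measured binding site.

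HSP90 is a dimer that holds kinases and receptors in a form ready for activation, and its 13 genes held 9 of the 17 called. The inducible form *Hsp90aa1* (GRCm38, chromosome 12, 110690605 to 110702728) was 200.0, 174 and 192 CPM in Con replicates 1, 2 and 3 and 298, 306 and 272 CPM in the Van replicates, with a log2 fold change of 0.63 ± 0.07 SE. The constitutive form *Hsp90ab1*, the most abundant of the subfamily per length, was 917, 914 and 1102 CPM in Con and 1390.5, 1452 and 1353 CPM in Van, with a log2 fold change of 0.52 ± 0.08 SE. For neither form did the groups overlap, although Con replicate 3 was nearer to Van for *Hsp90ab1*. The FPKM of *Hsp90ab1* was 6.64 ± 0.805 times that of *Hsp90aa1* in Con and 6.17 ± 0.195 times in Van (mean ± SD, n = 3).

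Among the cochaperones that load clients onto HSP90, the largest difference was in *Stip1* (chromosome 19, 7020702 to 7039967), which joins HSP70 to HSP90. Its level was 63.1, 55.8 and 55.5 CPM in Con and 113, 124 and 112 CPM in Van, with a log2 fold change of 1.00 ± 0.07 SE. The FPKM of both HSP90 forms together was 17.1 ± 2.48 times that of *Stip1* in Con and 12.3 ± 0.318 times in Van, so the adaptor was more abundant relative to HSP90 in every Van mouse. *Cdc37*, which loads kinases, was 136 to 155 CPM in Con and 145 to 158 CPM in Van, and these ranges overlapped.

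Later steps of the HSP90 cycle were also among the called genes. *Fkbp4*, an immunophilin of steroid receptor complexes, was 45.4, 44.4 and 49.8 CPM in Con and 80.3, 86.7 and 81.2 CPM in Van (0.83 ± 0.07 SE). *Ptges3*, the p23 protein that stabilises the closed dimer, was 70.6, 83.6 and 69.9 CPM in Con and 103, 107 and 102 CPM in Van (0.48 ± 0.08 SE). All 3 Van mice were above all 3 Con mice for each. *Ahsa1*, which stimulates the ATPase of HSP90, was 68.9, 66.3 and 73.7 CPM in Con and 94.2, 101 and 99.7 CPM in Van (0.50 ± 0.06 SE). Its relative *Ahsa2* was 17.0, 22.6 and 22.1 CPM in Con and 30.5, 35.6 and 31.9 CPM in Van (0.67 ± 0.12 SE). *Ahsa2* was separated too, but its exons share 2137 bases with *Usp34* on the opposite strand, and whether the counting used the strand of these stranded libraries is not stated. The same limit holds for *Dnaja1*, which shares 608 exon bases with *Smu1*, and for *Hspd1*, which shares 112 with *Hspe1*.

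The remaining called genes of the subfamily encode proteins with a CS domain, the fold of p23. *Chordc1*, whose promoter site is shown above, was 32.5, 36.9 and 32.7 CPM in Con and 53.2, 64.0 and 60.9 CPM in Van (0.80 ± 0.09 SE). *Cacybp*, the calcyclin-binding protein, was 36.7, 35.5 and 35.8 CPM in Con and 56.2, 57.0 and 60.4 CPM in Van (0.68 ± 0.06 SE). The Con mice were close to each other for *Cacybp*, with an SD of 0.644 CPM. Not called were the cyclophilin *Ppid* (0.19 ± 0.06 SE) and the myosin chaperone *Unc45a* (0.24 ± 0.08 SE), each separated between the groups, and the ubiquitin ligase *Stub1* (0.04 ± 0.07 SE), which overlapped.

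**Figure D2:**
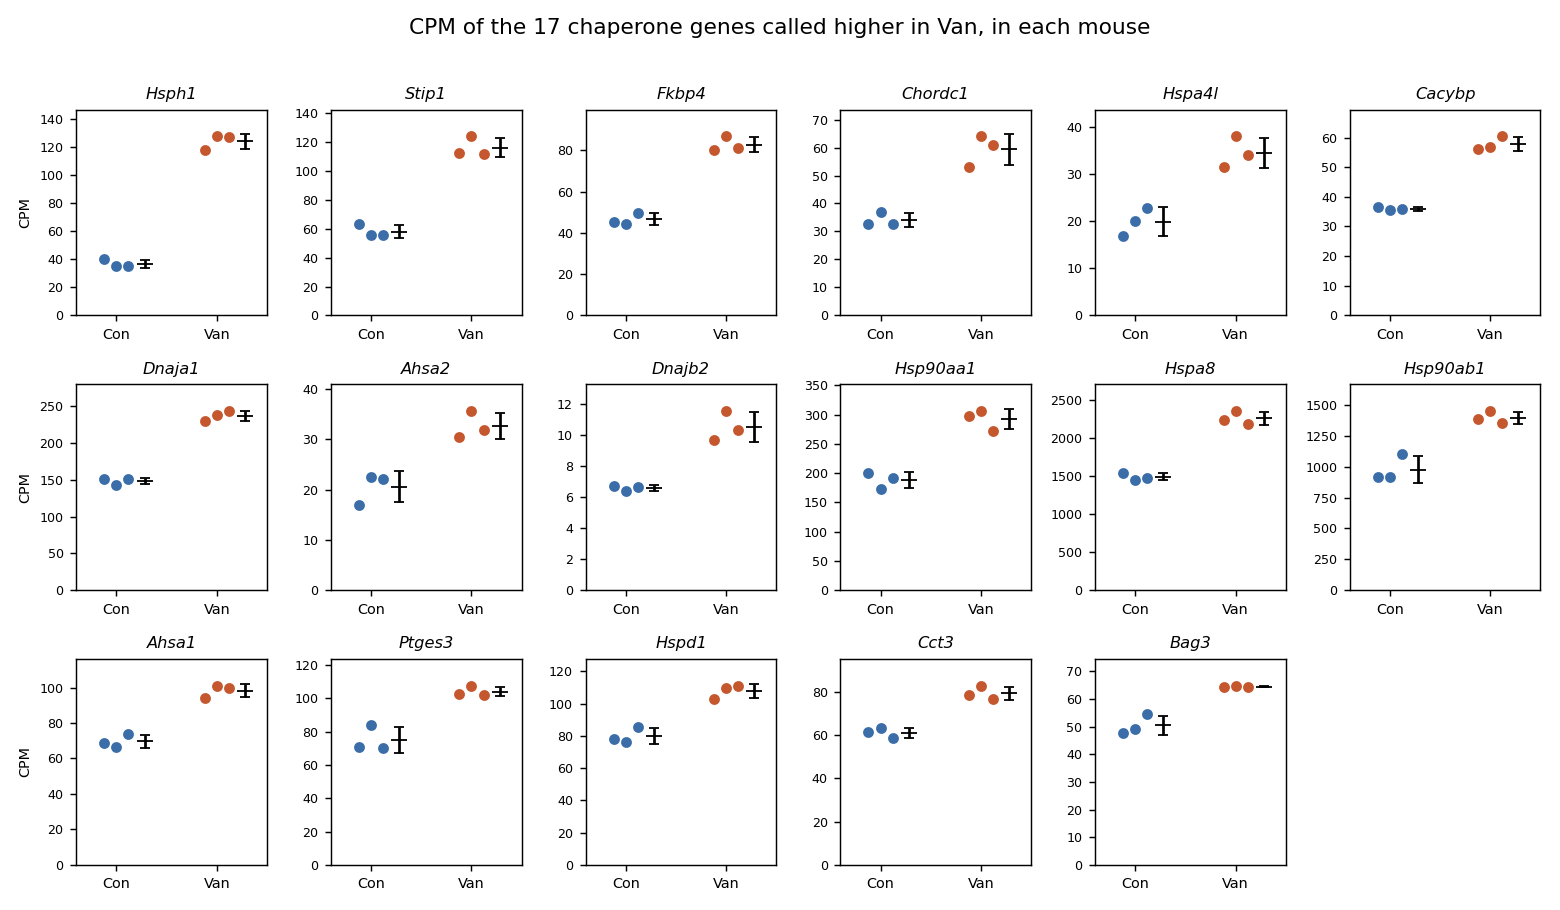
CPM (vertical axes, from 0) of the 17 called genes in each Con mouse (blue) and Van mouse (orange), with the mean ± SD of the 3 mice in black. Every Van point lies above every Con point, with the widest relative gap in *Hsph1*.

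The HSP70 family divided by member. *Hspa8*, the most abundant of the 54 genes per length at 529.9 ± 19.8 FPKM in Con and 819.5 ± 33.3 FPKM in Van, was 1541, 1456 and 1477 CPM in Con and 2244, 2354 and 2186 CPM in Van. This is a log2 fold change of 0.60 ± 0.05 SE, and the lowest Van mouse was above the highest Con mouse. The gene lies on chromosome 9 from 40800984 to 40810087. Near-identical copies of *Hspa8* could exchange reads with it, the largest being *Gm15459* at a mean of 203 CPM, whose own log2 fold change was 0.69 ± 0.07 SE. The next were *Gm26825* at 92.9 CPM (0.35 ± 0.17 SE) and *Gm8355* at 42.4 CPM (0.57 ± 0.10 SE). The same holds for *Hsp90aa1*, with *Gm12346* at 19.6 CPM (0.51), and for *Dnaja1*, with *Gm15542* at 13.3 CPM (0.85).

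The HSP110 proteins, which release nucleotide from HSP70, held the largest difference among the 54 genes. *Hsph1* (chromosome 5, 149614287 to 149636376) was 40.0, 35.0 and 35.1 CPM in Con and 117, 127 and 127 CPM in Van, with a log2 fold change of 1.76 ± 0.07 SE or 3.38-fold. *Hspa4l* was 16.9, 20.0 and 22.9 CPM in Con and 31.7, 38.1 and 34.0 CPM in Van (0.79 ± 0.12 SE). The third member of this group, *Hspa4*, was 148 to 169 CPM in Con and 143 to 154 CPM in Van (-0.06 ± 0.07 SE), and its groups overlapped. The FPKM of *Hspa8* was 59.3 ± 4.31 times that of *Hsph1* in Con and 26.6 ± 2.15 times in Van.

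The stress-inducible pair *Hspa1a* and *Hspa1b* did not separate. *Hspa1a* was 173, 89.1 and 262 CPM in Con and 179, 189.7 and 194 CPM in Van, with a log2 fold change of 0.10 ± 0.31 SE. *Hspa1b* was 193, 96.8 and 274 CPM in Con and 213, 213 and 224 CPM in Van, with a log2 fold change of 0.20 ± 0.30 SE. The Van mice were close together and lay inside the range of the Con mice, where replicate 2 was lowest and replicate 3 highest for both genes. Without Con replicate 2, the log2 fold changes were -0.22 and -0.11. With errors of this size, the values do not show that the pair was unchanged.

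The 2 genes also moved together across mice, with a Pearson correlation of 0.997 between their deviations from the group means over the 6 libraries, given as a description. Their transcripts were 99.2% identical over 2201 aligned bases, so that reads of one can be counted for the other. The 250 bases before their starts differed at 3 positions. The 150 bases next to each start are shown because both hold the same 2-unit element, in capitals, and no 3-unit element by the letters searched.
Hspa1a (chr17:34972157-34972306, minus strand, GRCm38.p6): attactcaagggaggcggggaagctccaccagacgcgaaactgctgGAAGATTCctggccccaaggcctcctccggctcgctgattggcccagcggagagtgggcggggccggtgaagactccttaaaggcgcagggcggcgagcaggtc
Hspa1b (chr17:34959239-34959388, minus strand, GRCm38.p6): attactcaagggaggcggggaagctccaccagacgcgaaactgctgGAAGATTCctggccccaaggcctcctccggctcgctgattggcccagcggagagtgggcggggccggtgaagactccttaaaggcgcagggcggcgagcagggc

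**Figure D3:**
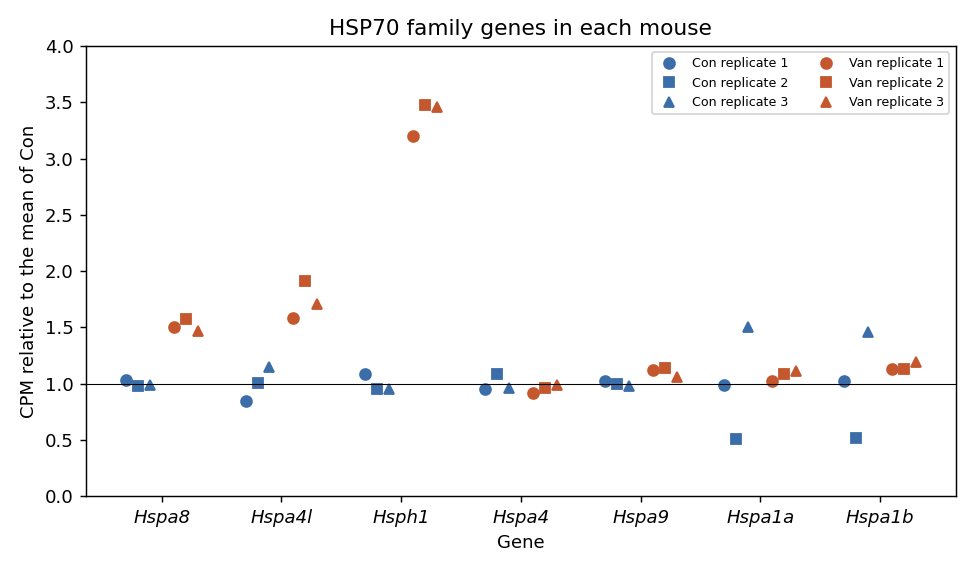
CPM of 7 HSP70 family genes in each mouse, divided by the mean of the 3 Con mice for that gene (vertical axis, no unit, line at 1), with 1 symbol shape per replicate number. *Hspa8*, *Hspa4l* and *Hsph1* are higher in all 3 Van mice, *Hspa4* overlaps, and for *Hspa1a* and *Hspa1b* Con replicate 2 is low and Con replicate 3 high.

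Of the other exchange factors, *Bag3*, which couples HSP70 to small heat shock proteins and autophagy, was 47.8, 48.9 and 54.4 CPM in Con and 64.2, 64.7 and 64.3 CPM in Van (0.35 ± 0.07 SE). The groups did not overlap, and the SD of the 3 Van mice was 0.238 CPM. *Bag4* was separated but not called (0.20 ± 0.09 SE). *Bag1*, *Bag2*, *Bag5* and the exchange factor *Hspbp1* overlapped, with log2 fold changes from -0.07 to 0.09. *Hspa2*, *Hspa13* and *Hspa14* overlapped as well, from -0.06 to 0.11.

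J proteins choose the clients of HSP70, and 2 of the 9 were called. *Dnaja1*, which carries proteins to the cytosolic HSP70, was 150.4, 143 and 152 CPM in Con and 229.8, 239 and 243 CPM in Van (0.68 ± 0.05 SE). *Dnajb2*, which sorts HSP70 clients to the proteasome, was 6.75, 6.40 and 6.63 CPM in Con and 9.67, 11.6 and 10.3 CPM in Van (0.67 ± 0.11 SE). All Van mice were above all Con mice for both, at levels that differed widely, 41.2 ± 2.05 FPKM for *Dnaja1* and 2.49 ± 0.178 FPKM for *Dnajb2* in Con. *Dnajc7*, which had the highest mean FPKM of these J proteins over all 6 mice although *Dnaja1* was above it in Van, was 115, 123 and 127 CPM in Con and 121, 123 and 127 CPM in Van, and the groups overlapped (0.03 ± 0.06 SE). *Dnajb1*, the classical heat-inducible J protein, was separated but not called (0.32 ± 0.09 SE), as were *Dnajb4* (0.36 ± 0.09 SE) and *Dnaja2* (0.10 ± 0.06 SE). *Dnaja4*, *Dnajb6* and *Dnajc2* overlapped.

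The small heat shock protein *Hspb1* was near the detection limit, at 0, 0.300 and 0.208 CPM in Con and 0.458, 0.157 and 0.355 CPM in Van. The difference between the groups, 0.92 ± 0.92 SE on the log2 scale, was as large as its error, and no direction is read from it.

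CCT is a double ring of 8 different subunits, of which 7 are in the list. All 7 were separated upward, by small amounts, with log2 fold changes from 0.10 to 0.38 and a median of 0.17, and 1 was called. This was *Cct3*, at 61.5, 63.3 and 58.8 CPM in Con and 78.8, 82.9 and 76.8 CPM in Van (0.38 ± 0.06 SE). *Cct3* had the lowest FPKM of the 7 in Con, and the highest subunit was 3.26 ± 0.138 times the lowest in Con and 2.76 ± 0.210 times in Van. The prefoldin genes *Pfdn1*, *Pfdn2* and *Pfdn5*, whose product hands actin and tubulin to CCT, overlapped between the groups. *Pfdn5*, the most abundant of CCT and prefoldin per length, was 116, 121 and 118 CPM in Con and 119, 119 and 112 CPM in Van (-0.02 ± 0.05 SE).

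Mitochondrial folding relies on HSP60 (*Hspd1*) and its lid HSP10 (*Hspe1*), which are transcribed in opposite directions around the shared site shown above. *Hspd1* was 77.9, 76.2 and 85.6 CPM in Con and 103, 110.0 and 111 CPM in Van (0.44 ± 0.07 SE) and was called. *Hspe1* was 32.1, 33.6 and 36.7 CPM in Con and 38.0, 43.6 and 45.6 CPM in Van (0.31 ± 0.09 SE), separated but not called. The FPKM of *Hspe1* was 1.27 ± 0.0275 times that of *Hspd1* in Con and 1.14 ± 0.0522 times in Van. The HSP90 of mitochondria, *Trap1* (0.19 ± 0.06 SE), and the mitochondrial HSP70, *Hspa9* (0.14 ± 0.06 SE), were also separated upward and not called.

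The heat shock factor genes were not called. *Hsf1* was 36.7, 39.0 and 33.2 CPM in Con and 42.5, 42.9 and 37.8 CPM in Van (0.18 ± 0.08 SE), and *Hsf2* was 19.9, 23.0 and 21.2 CPM in Con and 21.8, 22.0 and 19.0 CPM in Van (-0.03 ± 0.09 SE). The groups overlapped for both, and messenger RNA levels do not measure the activity of a factor that is regulated as a protein.

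Summed over the 54 genes, the level was 2249.6 ± 116 FPKM in Con and 2965 ± 118 FPKM in Van (mean ± SD, n = 3), or 0.568% and 0.756% of all FPKM. *Hspa8* and *Hsp90ab1* made up 38.3% of this sum in Con and 43.7% in Van. Without these 2 genes the sum was 1389 ± 73.6 and 1670.5 ± 66.8 FPKM, and the lowest Van mouse was still above the highest Con mouse. Among the 49 genes with a mean of at least 10 CPM, the median coefficient of variation was 6.26% in Con and 4.15% in Van, against 6.18% and 5.77% over all 8487 genes at that level. Selection on this contrast can favour genes of small spread, so nothing is read from these values.

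**Figure D4:**
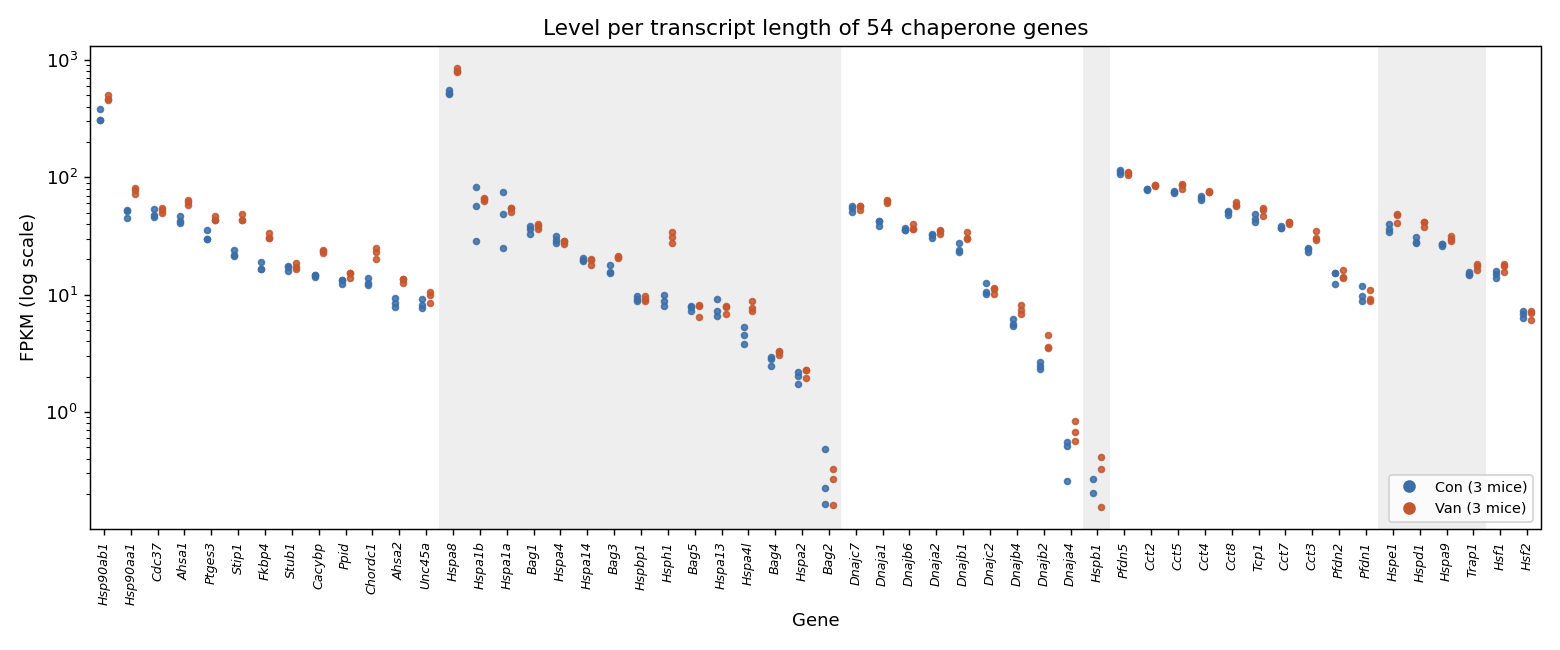
FPKM (vertical axis, log scale) of the 54 genes in each Con mouse (blue) and Van mouse (orange), ordered within subfamilies (shaded bands) by the mean of Con. *Hspa8* and *Hsp90ab1* are highest, *Hspb1* and *Bag2* lowest, and 1 Con value of *Hspb1* at 0 is not drawn.

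Chaperone genes outside the list were tested in the same fit. Of the 77, 42 had a log2 fold change above 0 and 35 below, with a median of 0.01, and 2 were called (2.60%, against 2.00% of all genes). *Fkbp5*, an immunophilin that competes with *Fkbp4* for HSP90 and is a known target of the glucocorticoid receptor, was 16.2, 24.0 and 15.9 CPM in Con and 107, 110.2 and 185 CPM in Van. The difference was 2.84 ± 0.25 SE on the log2 scale, with an adjusted p of 0.00281 in the edgeR fit over all genes (Benjamini-Hochberg). *Dnajc27* was 12.9, 14.0 and 11.8 CPM in Con and 7.79, 8.94 and 8.37 CPM in Van, with a log2 fold change of -0.62 ± 0.11 SE and an adjusted p of 0.0312 in the same edgeR fit. With each mouse left out, *Fkbp5* was called in 6 of 6 fits and *Dnajc27* in 0 of 6. *Fkbp8*, the most abundant of the 77 per length, was 139, 136 and 150.3 CPM in Con and 147, 145 and 149.6 CPM in Van (0.06 ± 0.06 SE) and overlapped. The rise of *Fkbp5* was known when this list was written.

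Markers of other cells also differed between the groups. The 6 erythroid markers summed to between 62.4 and 127 CPM in Con and between 215 and 476 CPM in Van, 6 of 6 higher and 4 called. The 4 red pulp macrophage markers summed to between 1039 and 1258 CPM in Con and between 1381 and 1720.4 CPM in Van, 4 of 4 higher and 0 called. The 9 monocyte markers summed to between 19358 and 20287 CPM in Con and between 17275 and 19391 CPM in Van, 8 of 9 lower and 2 called, *Ccr2* (-0.83 ± 0.14 SE) and *Fcgr1* (-0.32 ± 0.06 SE). Whether these markers have a part in the chaperone values was not tested, and in bulk samples fewer cells of a type and less RNA per cell cannot be told apart. The 14 immediate early genes, which respond to handling of cells, summed to between 13172 and 17683 CPM in Con and between 14283 and 15779 CPM in Van, and 0 of them were called. *Fosb* (0.17 ± 0.07 SE), *Ier2* (0.23 ± 0.05 SE) and *Ier3* (0.35 ± 0.13 SE) were separated upward, and the other 11 overlapped. The B cell markers summed to between 17.4 and 20.6 CPM in Con and between 14.2 and 17.1 CPM in Van, 5 of 5 lower, and the T cell markers to between 4.04 and 4.34 CPM in Con and between 2.43 and 3.56 CPM in Van, 3 of 4 lower, so that both sums were separated downward at low levels. The 4 platelet markers summed to between 15.2 and 30.5 CPM in Con and between 13.0 and 17.8 CPM in Van, 4 of 4 lower. The 5 dendritic cell markers summed to between 55.2 and 61.3 CPM in Con and between 55.0 and 58.5 CPM in Van, 4 of 5 lower, with *Clec9a* (-1.12 ± 0.14 SE) called. The plasma cell markers (4 of 5 lower) and the neutrophil markers (4 of 5 tested lower) had overlapping sums. Markers of B, T, NK and plasma cells, neutrophils and platelets had 0 called, and the 3 basophil or mast cell markers were too low to be tested. The share of counts from mitochondrial genes was between 2.56% and 2.81% in Con and between 1.98% and 2.32% in Van.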

How the data were processed

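Polyadenylated RNA of splenic monocytes was sequenced as stranded libraries from 3 Con and 3 Van mice. The authors aligned reads to GRCm38 with HISAT2 2.2.1 and made FPKM values with StringTie 2.1.3 and Ballgown, and the deposited expected counts (estimated counts that need not be whole) come from these, without scaling to library size. The deposited FPKM values are fragment numbers set relative to the length of the transcript and the size of the library. The annotation used, whether the counting used the strand, and the treatment of reads that align to several places are not stated. After multiplication by 75, between 52.3% and 55.0% of non-zero counts were whole to within 0.05, compared with 9.56% to 9.98% after multiplication by 74, so counts may not be fragments, and a common factor cancels in fold changes. The study's data statement names another deposit, and the samples were grouped by their labels. The VanLip group of the study, given vancomycin and then a bacterial lipid by injection, was not analysed here.

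Expected counts were rounded and tested in R 4.3.3 with edgeR 4.0.16 (TMM, expression filter at a minimum count of 10, quasi-likelihood test, group as the only term, Benjamini-Hochberg adjustment over all genes tested, call at an adjusted p of at most 0.05). CPM of single genes use the TMM library sizes, and summed marker CPM use the total counts alone. Alternatives were RLE factors, library size alone, no filter, at least 10 counts in every library, DESeq2 1.42.0, the replicate number as a block, limma 3.58.1 on quantile-normalized log2(FPKM + 1 or + 0.1), each mouse left out, counts times 0.375, and 1 identifier per symbol. The fits were tested on simulated data. Genes were matched by symbol, 54 of 54, and values in every mouse are given for called genes, the gene with the highest mean FPKM of each subfamily, *Hsf1*, *Hsf2*, *Hspa1a*, *Hspa1b*, *Hspd1* and *Hspe1*, and, outside the list, called chaperone genes and the most abundant one. The members, lists and tests were chosen with earlier results of these data known. Near-identical copies are matches of at least 200 bases at 95% identity by BLAST 2.17.0 between GENCODE M21 transcripts. Promoters are those of RefSeq on GRCm38.p6. P-values set the difference between the groups against the spread between the mice, which edgeR estimated with information shared across genes. With counts of this size, the number of mice limits precision.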

Additional observations from a re-analysis of the deposited data

How the results depend on the processing

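The number of the 54 genes called stayed at 17 with RLE factors, library size alone, no filter, at least 10 counts per library, counts times 0.375 and 1 identifier per symbol, where 320, 346, 356, 391, 375 and 332 of all genes were called. It was 22 with DESeq2, 5 with limma on log2(FPKM + 1), 1 on log2(FPKM + 0.1) and 6 on log2(FPKM + 1) without a filter, and 6 to 12 with a mouse left out. The cause was not tested, and the fits with a mouse left out also had fewer samples. Of all genes, 1026 were called by DESeq2, 13, 5 and 24 in the 3 limma fits, and 21 to 136 with a mouse left out. Of the other 77 chaperone genes, 5 were called by DESeq2, 1, 0 and 0 by limma, and 1 in each fit with a mouse left out. The median log2 fold change of the 54 was 0.17 in both limma fits on log2(FPKM + 1), and 0.19 to 0.22 with a mouse left out.

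With the replicate number as a block, 12 of the 54 genes, 110 of all genes and 1 of the other chaperone genes were called. Deviations of same-numbered mice correlated at 0.0818, -0.0359 and -0.181, and those of differently numbered mice at -0.142 to 0.179. The numbers thus showed no sign of pairing the mice, and whether mice were paired in another way was not tested.

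Of the 54 genes, 44 to 48 were above 0 under every alternative. Among the genes given in every mouse, the directions that reversed were those of *Hspa1a* (-0.22), *Hspa1b* (-0.11) and *Hsf2* (0.02) without Con replicate 2, *Hsf2* (0.03) and *Pfdn5* (0.01) without Van replicate 3, and *Dnajc7* (-0.01) without Con replicate 1. Over the fits with a mouse left out, the log2 fold changes ran from -0.22 to 0.52 for *Hspa1a*, -0.11 to 0.58 for *Hspa1b*, -0.08 to 0.03 for *Hsf2*, -0.04 to 0.01 for *Pfdn5* and -0.01 to 0.06 for *Dnajc7*. *Hsph1* was called under all 17 alternatives. The 3-unit element was in 6.98% of the 43 promoters before the start alone, against 0.514% of genes, and the 2-unit element in 39.5%.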

Other observations

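Genes outside the chaperone list that carry the 3-unit heat shock element in their RefSeq promoter gave 1 call among the 54 tested (1.85%, against 2.15% of the 10049 tested without it). This was *Coro2a*, a coronin that binds actin, which was lower in Van with a log2 fold change of -0.52 ± 0.07 SE and an adjusted p of 0.0131 in the edgeR fit over all genes (Benjamini-Hochberg).

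Across the 6 libraries, with group means removed, the 136 pairs of called chaperone genes had a median Pearson correlation of 0.19, *Hspd1* and *Hspe1* 0.86, *Hspa8* and *Hsph1* 0.60, and *Hsp90aa1* and *Hsp90ab1* 0.37. The points of each pair share a library and its scaling, and *Hspd1* and *Hspe1* also share 112 exon bases on opposite strands.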
